A study of Mus musculus with 12 samples.

Results

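The transcripts described here are 9 of the 46078 genes listed in the expression table of a mouse microglial cell line. They are the interferon receptor chains Ifngr1, Ifngr2, Ifnar1 and Ifnar2, the receptor-bound kinases Jak1, Jak2 and Tyk2, and the transcription factors Stat2 and Stat3. They were chosen by gene symbol as parts of the interferon signalling pathway, and all 9 passed the filter on low values, which left 10981 genes for testing. The cells were BV2, an immortalised line derived from microglia, the resident macrophages of the brain. The 4 groups were Atg5 knockout (KO) cells given 1 U/mL interferon gamma (IFNγ) for 24 h, KO cells kept in medium, wild type (WT) cells given the same dose of IFNγ for the same time, and WT cells kept in medium. Atg5 encodes a protein that is needed for autophagosomes to form. Each group had 3 libraries with the letters A, B and C, made independently according to the labels, from cytosolic polyadenylated RNA read near its 3′ end. How many KO clones were used cannot be read from the labels, so a difference between the genotypes cannot be told apart from a difference between clones.

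IFNγ binds a receptor of Ifngr1 and Ifngr2 chains, which carry Jak1 and Jak2, and the kinases activate a STAT homodimer that binds gamma-activated sites (GAS) in DNA. Type I interferons bind Ifnar1 and Ifnar2, which carry Tyk2 and Jak1, and lead to ISGF3, a complex of STAT proteins including Stat2 with Irf9. ISGF3 binds interferon-stimulated response elements (ISRE) in antiviral genes. Stat3 is best known for relaying signals of the interleukin-6 and interleukin-10 families.

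The promoters of 5 of the 9 genes are shown because they set the 3 transcripts that rose with IFNγ (Stat2, Stat3 and Jak2) beside the 2 receptor genes whose windows held a GAS match. RefSeq held a promoter for 9 of 9 genes, each running from 250 bases before to 50 bases after the start, on build GRCm38.p6. The windows are chr10:128270248-128270547 on the + strand for Stat2, chr11:100939491-100939790 on the - strand for Stat3, chr19:29251553-29251852 on the + strand for Jak2, chr16:91484965-91485264 on the + strand for Ifnar1 and chr16:91372533-91372832 on the + strand for Ifnar2. Sequences run 5′ to 3′ along the gene, and capitals mark a motif match.
Stat2: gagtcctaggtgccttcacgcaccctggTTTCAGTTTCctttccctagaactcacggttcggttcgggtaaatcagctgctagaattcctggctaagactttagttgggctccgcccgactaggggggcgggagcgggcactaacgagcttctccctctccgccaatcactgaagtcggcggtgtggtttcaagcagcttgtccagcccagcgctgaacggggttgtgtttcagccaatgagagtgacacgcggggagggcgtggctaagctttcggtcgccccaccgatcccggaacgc
Stat3: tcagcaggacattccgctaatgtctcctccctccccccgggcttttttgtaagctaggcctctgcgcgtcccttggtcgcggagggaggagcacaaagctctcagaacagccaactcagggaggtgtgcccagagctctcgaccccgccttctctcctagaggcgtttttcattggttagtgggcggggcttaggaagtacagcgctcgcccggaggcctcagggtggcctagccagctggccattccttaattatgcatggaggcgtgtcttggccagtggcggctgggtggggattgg
Jak2: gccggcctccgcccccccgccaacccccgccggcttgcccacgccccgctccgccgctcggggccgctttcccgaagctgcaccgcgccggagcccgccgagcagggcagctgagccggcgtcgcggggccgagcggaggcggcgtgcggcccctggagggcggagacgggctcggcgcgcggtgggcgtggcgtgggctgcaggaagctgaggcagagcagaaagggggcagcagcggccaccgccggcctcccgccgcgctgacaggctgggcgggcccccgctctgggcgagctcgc
Ifnar1: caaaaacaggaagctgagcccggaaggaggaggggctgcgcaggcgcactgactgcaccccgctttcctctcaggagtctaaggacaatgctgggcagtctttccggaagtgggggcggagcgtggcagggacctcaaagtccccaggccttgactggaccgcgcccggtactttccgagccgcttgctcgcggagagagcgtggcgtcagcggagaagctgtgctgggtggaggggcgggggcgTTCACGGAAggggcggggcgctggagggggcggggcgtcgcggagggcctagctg
Ifnar2: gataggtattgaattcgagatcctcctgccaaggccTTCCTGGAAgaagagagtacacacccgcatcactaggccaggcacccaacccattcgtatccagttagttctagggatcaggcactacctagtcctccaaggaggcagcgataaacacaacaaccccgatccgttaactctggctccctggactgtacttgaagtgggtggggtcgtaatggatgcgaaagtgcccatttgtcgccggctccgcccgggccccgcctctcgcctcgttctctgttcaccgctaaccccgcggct
Both strands were searched for a GAS core, TTCNNNGAA, and an ISRE core, TTTCNNTTTC or its reverse complement GAAANNGAAA. Stat2 held 1 ISRE match, TTTCAGTTTC, at positions -222 to -213 counted with the RefSeq start base as 1. The GENCODE start of Stat2, chr10:128270559, lies beyond the end of this window, so positions depend on the annotation. Ifnar1 held 1 GAS match, TTCACGGAA, at -5 to 4, and Ifnar2 held 1 GAS match, TTCCTGGAA, at -214 to -206. The other 6 windows, including those of Stat3 and Jak2, held neither string of letters. Of 32851 promoters of the same length, 8.3% held the GAS core and 3.44% held the ISRE core. A match of letters is a description of these windows and shows no binding.

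The libraries held between 3329849 and 7330435 reads, and values are log2 of the deposited normalised count after adding 1, so that a difference of 1 is a factor of 2. Atg5 reads did not check the genotype, since the altered stretch of the gene is not given in the sources used here and reads came from the 3′ end. Atg5 stood at 8.74 to 8.83 in KO cells with IFNγ, 8.68 to 9.02 in KO cells in medium, 8.86 to 8.96 in WT cells with IFNγ and 8.35 to 8.57 in WT cells in medium. Of 15 microglial and macrophage markers all had reads, but the homeostatic markers were low, with 207 reads of Cx3cr1, 87 of P2ry12, 62 of Tmem119 and 21 of Fcrls over the 12 libraries. Of 39 markers of other cell types 23 had no read, among them Col1a1, Aqp4, Mog, Cd3e and Epcam, and the endothelial receptor gene Kdr held most of the reads of the rest. On the first principal component, which held 40.3% of the variance, library C of each IFNγ group lay nearer to the medium libraries than A and B did. Its score was 29.1 against 41.2 and 44.0 in KO cells, and 22.2 against 55.3 and 56.3 in WT cells.

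IFNγ was followed by higher levels of Stat2, Stat3 and Jak2 in both genotypes, and no call was made for the 4 receptor chains. In KO cells Stat2 rose by 3.04 on the log2 scale, Jak2 by 1.75 and Stat3 by 1.13. In WT cells Stat2 rose by 3.93, Stat3 by 1.63 and Jak2 by 1.29. In KO cells 3 of the 9 transcripts were called higher and 0 lower at a limma adjusted p under 0.05, where 7.36% of all tested genes were called, 4.67% higher and 2.69% lower. In WT cells 3 of 9 were called higher and 0 lower, where 6.65% of all tested genes were called, 4.53% higher and 2.12% lower. The median change over the 9 transcripts was 0.31 in KO cells and 0.55 in WT cells, beside medians of 0.01 and -0.02 over all tested genes. In RNA drawn from many cells at once, more responding cells and more transcript per cell cannot be told apart.

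**Figure D1:**
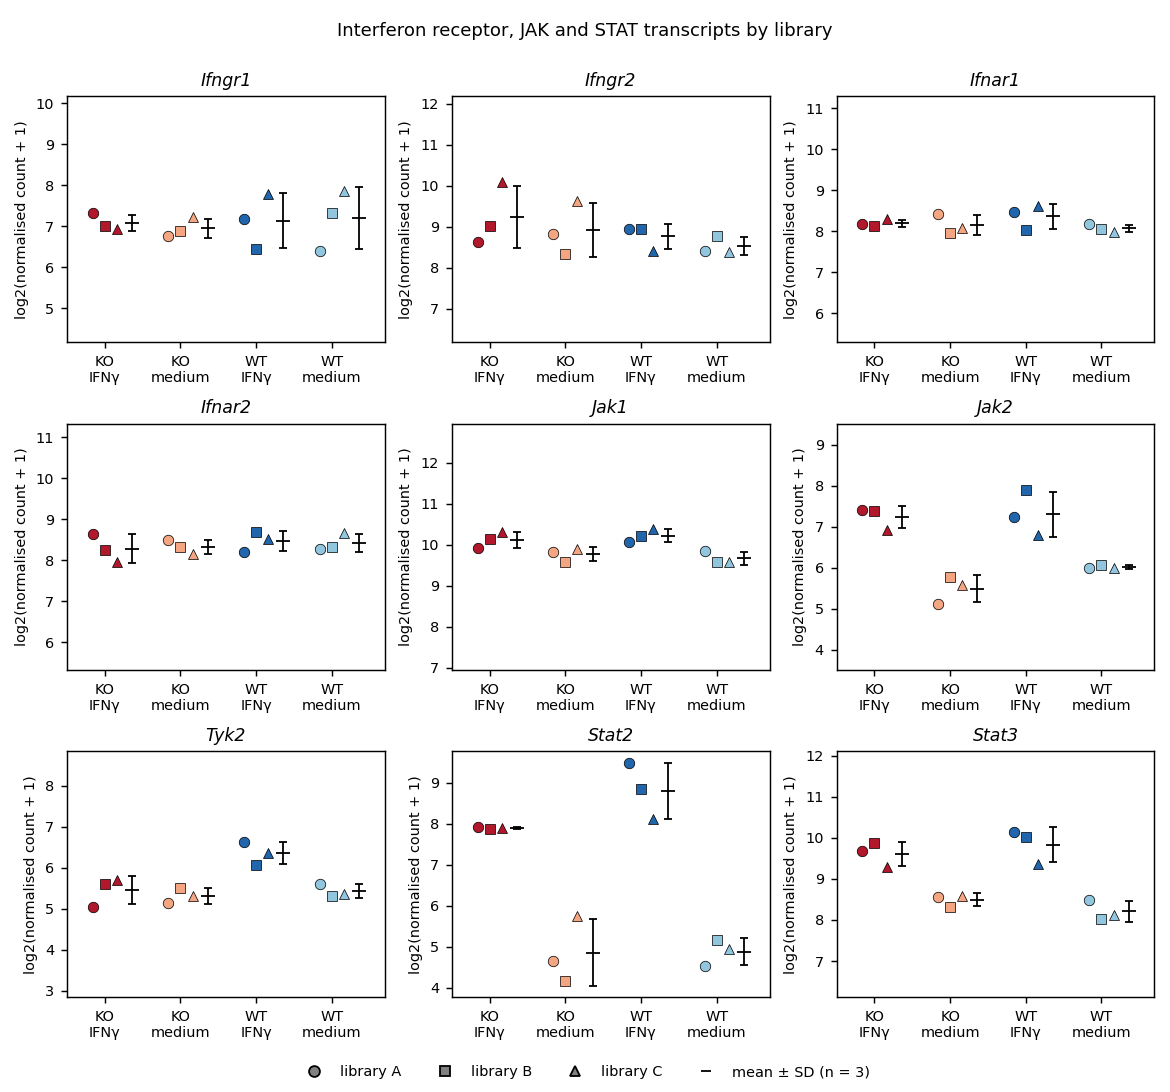
Log2(normalised count + 1) of the 9 transcripts in the 12 libraries, with 1 panel per gene and the groups KO IFNγ, KO medium, WT IFNγ and WT medium from left to right; marker shapes are libraries A, B and C, and bars are means ± SD (n = 3). Stat2, Stat3 and Jak2 stand higher in every IFNγ library than in every medium library, the 4 receptor chains overlap across groups, and every vertical axis spans 6 log2 units.

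Of the 2 STATs, Stat2 had the larger change in each genotype. Stat2, the subunit of ISGF3 that carries its main activation domain, stood at 7.93, 7.86 and 7.90 in KO libraries A, B and C with IFNγ, and at 4.66, 4.16 and 5.76 in KO libraries A, B and C in medium. It stood at 9.47, 8.84 and 8.11 in WT libraries A, B and C with IFNγ, and at 4.52, 5.17 and 4.94 in WT libraries A, B and C in medium. All 6 IFNγ libraries lay above all 6 medium libraries, and the KO libraries with IFNγ were close together while the WT libraries with IFNγ spread, with C the lowest. The reads behind these values came to 764 over the 3 KO libraries with IFNγ, 87 over those in medium, 1228 over the WT libraries with IFNγ and 104 over those in medium. In KO cells the mean was 7.90 ± 0.03 with IFNγ and 4.86 ± 0.82 in medium (SD, n = 3 each), an 8.21-fold difference with a limma adjusted p of 1.3e-05. In WT cells it was 8.81 ± 0.68 with IFNγ and 4.88 ± 0.33 in medium (SD, n = 3 each), a 15.2-fold difference with a limma adjusted p of 4.42e-07. The change had a 95% interval of 2.27 to 3.81 in KO cells and of 3.16 to 4.70 in WT cells. It was larger than that of 98.8% of all tested genes in KO cells and of 99.2% in WT cells. Stat2 is the gene with the ISRE letters in the promoter shown above, while the windows of Stat3 and Jak2 held no match. Any part of these letters in the change of Stat2 was not tested.

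Stat3, which carries signals of many cytokines besides interferons, also rose in both genotypes. It stood at 9.67, 9.88 and 9.30 in KO libraries A, B and C with IFNγ, and at 8.57, 8.31 and 8.59 in KO libraries A, B and C in medium. It stood at 10.15, 10.01 and 9.36 in WT libraries A, B and C with IFNγ, and at 8.49, 8.02 and 8.11 in WT libraries A, B and C in medium. Every IFNγ library lay above every medium library, and C was the lowest of the IFNγ libraries in each genotype. The change was 1.13 ± 0.22 in KO cells (SE; 95% interval 0.66 to 1.59), a 2.19-fold difference with a limma adjusted p of 0.00259. In WT cells it was 1.63 ± 0.22 (SE; 95% interval 1.17 to 2.10), a 3.10-fold difference with a limma adjusted p of 5.05e-05. The last 72 bases of Stat3 overlap the end of Stat5a on the other strand, and whether reads were counted by strand is not given in the sources used here. Stat5a itself was not called, with changes of -0.81 in KO cells and -0.65 in WT cells.

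Among the kinases, Jak2 was called in both genotypes, while Jak1 and Tyk2 were called in neither. Jak2, the kinase bound to Ifngr2, stood at 7.41, 7.38 and 6.93 in KO libraries A, B and C with IFNγ, and at 5.13, 5.77 and 5.58 in KO libraries A, B and C in medium. It stood at 7.25, 7.89 and 6.80 in WT libraries A, B and C with IFNγ, and at 6.00, 6.07 and 6.00 in WT libraries A, B and C in medium. The 3 WT libraries in medium were almost level, those with IFNγ were all higher, and the KO libraries in medium were the lowest of the 12. The change was 1.75 ± 0.29 in KO cells (SE; 95% interval 1.14 to 2.36), a 3.36-fold difference with a limma adjusted p of 0.000427. In WT cells it was 1.29 ± 0.29 (SE; 95% interval 0.68 to 1.90), a 2.44-fold difference with a limma adjusted p of 0.00816. The WT call rested on library B with IFNγ: without it the change was 1.00 with a limma adjusted p of 0.0808. Between 21 and 225 reads per library stood behind these values.

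Jak1, the kinase shared by both interferon receptors, stood at 9.91, 10.13 and 10.31 in KO libraries A, B and C with IFNγ, and at 9.83, 9.57 and 9.91 in KO libraries A, B and C in medium. It stood at 10.06, 10.21 and 10.38 in WT libraries A, B and C with IFNγ, and at 9.84, 9.57 and 9.58 in WT libraries A, B and C in medium. The IFNγ libraries lay above the medium libraries of their own genotype, and in KO cells the lowest IFNγ library and the highest medium library both round to 9.91. Jak1 did not pass the test in either genotype, with a change of 0.35 in KO cells (95% interval -0.02 to 0.72, limma adjusted p = 0.294) and of 0.55 in WT cells (95% interval 0.18 to 0.92, limma adjusted p = 0.0684).

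Tyk2, the kinase bound to Ifnar1, was the transcript with 1 group apart from the other 3 while those 3 overlapped. It stood at 5.05, 5.61 and 5.70 in KO libraries A, B and C with IFNγ, and at 5.13, 5.50 and 5.29 in KO libraries A, B and C in medium. It stood at 6.61, 6.07 and 6.35 in WT libraries A, B and C with IFNγ, and at 5.61, 5.30 and 5.36 in WT libraries A, B and C in medium. The 3 WT libraries with IFNγ were the highest of the 12, and the other 3 groups overlapped. The change with IFNγ was 0.14 in KO cells (95% interval -0.49 to 0.78, limma adjusted p = 0.858) and 0.92 in WT cells (95% interval 0.29 to 1.56, limma adjusted p = 0.0788), so neither was called. Between 21 and 77 reads per library stood behind these values. An antisense gene, 1700084C06Rik, lies across 24326 bases of Tyk2 on the other strand, so reads of the pair cannot be told apart without strand.

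Counting transcripts whose IFNγ and medium libraries did not overlap, 4 of 9 lay higher in KO cells (Stat2, Stat3, Jak2 and Jak1), where 24.4% of all tested genes did not overlap, 12.8% higher and 11.6% lower. In WT cells 5 of 9 lay higher, the same 4 and Tyk2, where 24.1% of all tested genes did not overlap, 12.9% higher and 11.3% lower. None of the 9 transcripts lay lower in this way in either genotype. Without both C libraries with IFNγ, which lay nearer to the medium libraries, Stat2 changed by 3.04 in KO cells and 4.28 in WT cells, Stat3 by 1.29 and 1.87 in KO and WT cells, and Jak2 by 1.90 and 1.55 in KO and WT cells, all 6 with a limma adjusted p under 0.05. This alternative was chosen after seeing the data. C was the lowest IFNγ library of Stat3 and Jak2 in both genotypes and of Stat2 in WT cells. Leaving it out had to raise those changes, so these values are not separate evidence.

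The receptor chains showed no call with IFNγ, and their libraries overlapped between the groups. Most tested genes did the same: 7.36% were called in KO cells and 6.65% in WT cells. The groups did not overlap for 24.4% of all tested genes in KO cells and 24.1% in WT cells. Ifngr1, the chain that binds IFNγ, ranged from 6.39 to 7.87 over the 12 libraries, and both of these extremes were WT libraries in medium. Its change was 0.13 in KO cells (95% interval -0.59 to 0.85) and -0.06 in WT cells (95% interval -0.78 to 0.66). Ifnar1 ranged from 7.95 to 8.61 and changed by 0.05 in KO cells (95% interval -0.37 to 0.47) and by 0.30 in WT cells (95% interval -0.13 to 0.72). Ifnar2, the chain with the higher affinity for type I interferons, ranged from 7.96 to 8.68 and changed by -0.03 in KO cells (95% interval -0.48 to 0.41) and by 0.05 in WT cells (95% interval -0.40 to 0.50). The upper limits of these 3 chains lie above 0.40 in both genotypes, so rises up to that size lie within the intervals. The intervals reach less far down for Ifnar1, to -0.37 in KO cells and -0.13 in WT cells. The limma adjusted p of the 4 receptor chains ran from 0.454 to 0.958 over both genotypes.

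Ifngr2, the signalling chain of the IFNγ receptor, had 1 library in each KO group far above the others. It stood at 8.62, 9.01 and 10.08 in KO libraries A, B and C with IFNγ, and at 8.82, 8.34 and 9.63 in KO libraries A, B and C in medium. It stood at 8.95, 8.95 and 8.42 in WT libraries A, B and C with IFNγ, and at 8.41, 8.78 and 8.39 in WT libraries A, B and C in medium. The C libraries of the KO cells, with 1404 reads with IFNγ and 743 in medium, were the highest of the 12, while the C libraries of the WT cells were among the lowest. The change of Ifngr2 with IFNγ was 0.31 in KO cells (95% interval -0.36 to 0.99) and 0.24 in WT cells (95% interval -0.43 to 0.92). With 1 library left out at a time, the change in KO cells ran from -0.11 to 0.66. KO minus WT was 0.47 with IFNγ (95% interval -0.21 to 1.15) and 0.05 without KO library C with IFNγ. In medium it was 0.40 (95% interval -0.28 to 1.08) and 0.05 without KO library C in medium.

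**Figure D2:**
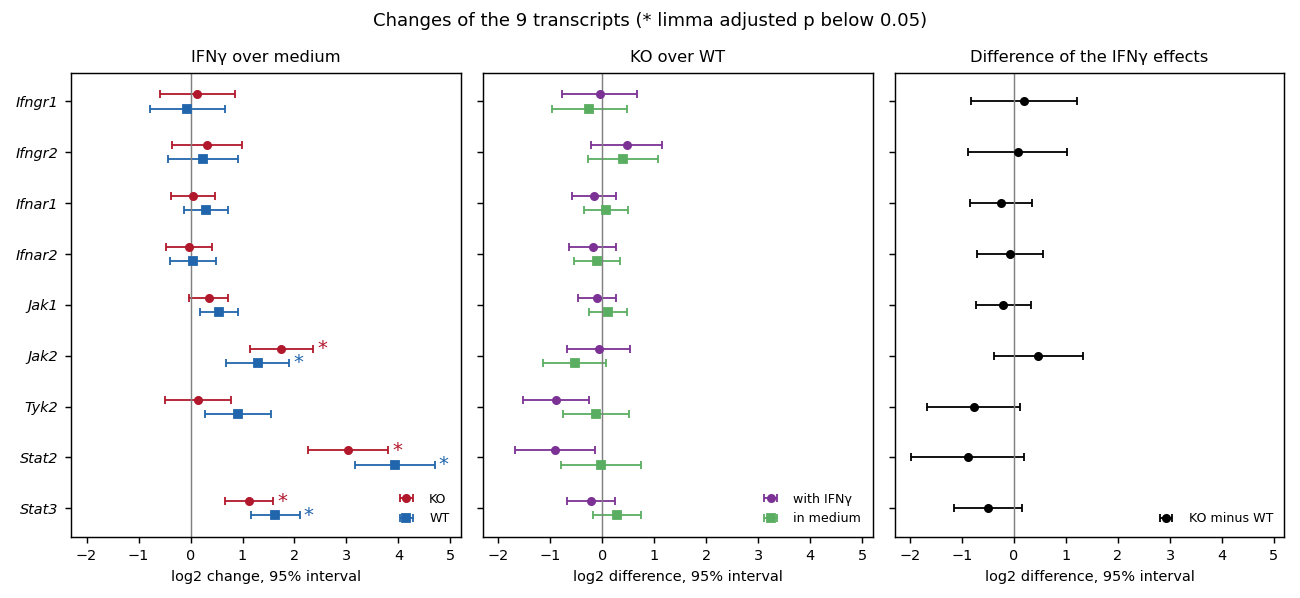
Log2 changes of the 9 transcripts with 95% intervals from limma: IFNγ over medium in KO and WT cells (left), KO over WT with IFNγ and in medium (middle), and the IFNγ change in KO cells minus that in WT cells (right); asterisks mark an adjusted p under 0.05. Asterisks stand beside Stat2, Stat3 and Jak2 in the left panel and nowhere in the other panels.

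Between KO and WT cells given IFNγ, none of the 9 transcripts was called, but Stat2 and Tyk2 stood lower in every KO library than in every WT library. Over all tested genes 0.492% were called in this comparison and 16.1% did not overlap, 7.08% with KO higher and 9.04% with KO lower. Stat2 differed by -0.91 (95% interval -1.68 to -0.14), with an unadjusted p of 0.0227 and a limma adjusted p of 0.319. Tyk2 differed by -0.89 (95% interval -1.53 to -0.26), with an unadjusted p of 0.00823 and a limma adjusted p of 0.217. These were the 2 transcripts of the 9 with an unadjusted p under 0.05, and limma-voom on the recovered reads also called 0 of the 9. Stat3 differed by -0.22 (95% interval -0.69 to 0.25), Jak1 by -0.10 (95% interval -0.47 to 0.27) and Jak2 by -0.07 (95% interval -0.68 to 0.53). The median over the 9 transcripts was -0.17. Without WT library C with IFNγ the Stat2 difference was -1.26 (limma adjusted p = 0.128), so the value grew and still missed the threshold. With 1 library left out at a time, the Stat2 difference ran from -1.26 to -0.58, with limma adjusted p from 0.128 to 0.692. This comparison shares its KO and WT libraries with IFNγ with the changes given above.

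In medium, 0 of the 9 transcripts were called between KO and WT cells by limma, 0 had an unadjusted p under 0.05 and 0 were called by limma-voom. Of all tested genes 0.428% were called. Jak2 was the 1 transcript whose groups did not overlap, lower in all 3 KO libraries, where 13.6% of all tested genes did not overlap, 6.21% higher and 7.37% lower in KO cells. Its mean was 5.49 ± 0.33 in KO cells and 6.02 ± 0.04 in WT cells (SD, n = 3 each), a difference of -0.53 (95% interval -1.14 to 0.07, limma adjusted p = 0.688). Stat2 differed by -0.02 (95% interval -0.79 to 0.75), Stat3 by 0.28 (95% interval -0.18 to 0.75) and Tyk2 by -0.11 (95% interval -0.75 to 0.52).

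The IFNγ changes in KO and WT cells were compared directly as a difference of differences, KO minus WT. None of the 9 transcripts was called by limma or limma-voom and 0 had an unadjusted p under 0.05, and over all tested genes the share called was 0%, with 792 genes at an unadjusted p under 0.05. The difference was -0.89 for Stat2 (95% interval -1.98 to 0.20, limma adjusted p = 0.752), -0.78 for Tyk2 (95% interval -1.68 to 0.12, limma adjusted p = 0.734) and -0.50 for Stat3 (95% interval -1.16 to 0.15, limma adjusted p = 0.772). It was 0.46 for Jak2 (95% interval -0.40 to 1.32, limma adjusted p = 0.853). The Stat2 interval reaches from a KO response that is lower by 1.98 to one that is higher by 0.20, so neither a like response nor a weaker one in KO cells is shown.

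Ordered by group mean, Stat2 ran KO medium, WT medium, KO IFNγ and WT IFNγ, with the first pair overlapping and each later step apart. Jak2 ran in the same order of groups, with every step apart except that between KO and WT cells with IFNγ. Stat3 ran WT medium, KO medium, KO IFNγ and WT IFNγ, and only the step between KO medium and KO IFNγ had no overlap. Tyk2 ran KO medium, WT medium, KO IFNγ and WT IFNγ, and only the last step had no overlap. Jak1 ran in the order of Stat3 and, like it, was apart only at the step between KO medium and KO IFNγ. For each of the 4 receptor chains all neighbouring groups overlapped. Over all tested genes, 24.4% did not overlap between KO IFNγ and KO medium, and 24.1% between WT IFNγ and WT medium. The share was 16.1% between KO and WT cells with IFNγ and 13.6% between them in medium. For steps that change both genotype and treatment, no share was computed.

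**Figure D3:**
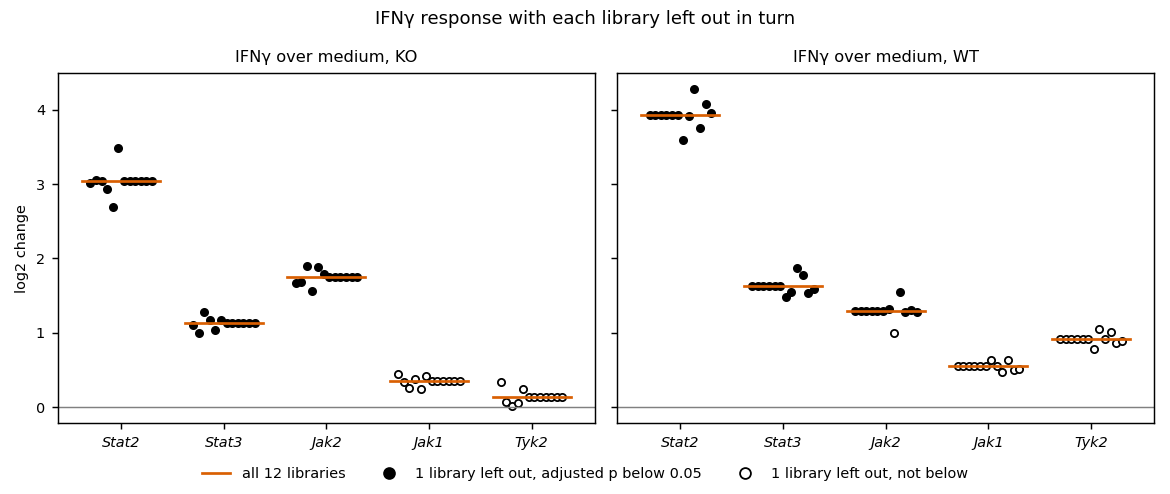
Log2 change with IFNγ over medium of Stat2, Stat3, Jak2, Jak1 and Tyk2 in KO (left) and WT cells (right), refitted with each of the 12 libraries left out in turn; filled points have a limma adjusted p under 0.05 and lines mark the value from all 12 libraries. Stat2 and Stat3 stay filled throughout, and 1 Jak2 point in WT cells, at 1.00, is open.

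Markers of other cell types and nuclear RNAs moved with the groups as well. The summed level of the 15 microglial and macrophage markers, in normalised counts, was 11400 to 13680 in KO cells with IFNγ, 9467 to 11920 in KO cells in medium, 13760 to 15020 in WT cells with IFNγ and 11430 to 14310 in WT cells in medium. The 39 markers of other cell types summed to 297.5 to 453.2 in KO cells with IFNγ, 178.3 to 200.7 in KO cells in medium, 538.8 to 928.6 in WT cells with IFNγ and 359.8 to 637.7 in WT cells in medium. Of these 39 markers 4 could be tested, and Kdr rose with IFNγ in KO cells by 1.12 and Lck, a kinase of T cells, rose in WT cells by 1.83. The 5 nuclear-retained RNAs, 4 of them tested, summed to 5568 to 7055 in KO cells with IFNγ, 2640 to 3931 in KO cells in medium, 3451 to 6370 in WT cells with IFNγ and 3740 to 4129 in WT cells in medium. Among them Malat1 and Neat1 rose with IFNγ in KO cells by 1.28 and 1.20, and Kcnq1ot1 fell by 1.00 in WT cells. Between the genotypes Kdr was lower by 1.43 in KO cells in medium and Kcnq1ot1 was higher by 1.35 in KO cells with IFNγ. The part of these RNAs in the changes of the 9 transcripts was not tested.

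The ligands of the receptors were close to absent from the reads. Of 21 interferon genes, Ifng, Ifnb1 and the alpha, kappa, epsilon, zeta and lambda members among them, Ifnb1 had 1 read in 1 library and the others had none, so 0 could be tested. No read does not show that a gene is silent, since these libraries held at most 7330435 reads each.

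The other members of the JAK and STAT families gave no call. Of 5 such genes 4 were tested, and Stat4 had no read. Over all tested genes 7.36% were called with IFNγ in KO cells and 6.65% in WT cells. Stat5a, a mediator of growth hormone and interleukin-2 family signals, changed by -0.81 in KO cells (limma adjusted p = 0.142) and by -0.65 in WT cells (limma adjusted p = 0.254). Its near copy Stat5b changed by -0.39 in KO cells and by -0.03 in WT cells. Stat6, the factor of interleukin-4 signalling, changed by -0.24 in KO cells and by -0.16 in WT cells, and Jak3 by 1.22 and 0.20 from few reads. The median over the 4 genes was -0.31 in KO cells and -0.10 in WT cells.

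Among the interferon regulatory factors, which bind ISRE and related sites, 4 of 7 tested genes rose with IFNγ in KO cells and 4 of 7 in WT cells, where 4.67% of all tested genes were called higher in KO cells and 4.53% in WT cells. In KO cells the largest changes were 4.38 for Irf1, 4.12 for Irf7 and 2.17 for Irf9, the DNA-binding partner of Stat2 in ISGF3. In WT cells the largest were 4.87 for Irf7, 3.91 for Irf1 and 1.78 for Irf8, and Irf9 rose by 1.21. The median of the 7 genes was 1.41 in KO cells and 1.21 in WT cells. Irf9 stood at 5.75 ± 0.44 in KO cells and 6.74 ± 0.30 in WT cells in medium (SD, n = 3 each), a difference of -0.99 that was not called (limma adjusted p = 0.252).

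Some genes that restrain the pathway rose with IFNγ. Of 15 tested, 3 rose in KO cells and 3 in WT cells, and none fell, where 4.67% of all tested genes were called higher in KO cells and 4.53% in WT cells. In KO cells these were Socs1, an inhibitor of Jak1, Jak2 and Tyk2, with a change of 4.62, Usp18, which acts at Ifnar2, with 4.34, and the phosphatase gene Ptpn2 with 0.87. In WT cells they were Usp18 with 3.33, Socs1 with 2.92 and Socs2 with 0.88. Usp18 was also the 1 gene of this list called between the genotypes in medium, where 0.428% of all tested genes were called. It stood at 3.15 ± 0.61 in KO cells and 5.11 ± 0.50 in WT cells (SD, n = 3 each), a difference of -1.96 with a limma adjusted p of 0.00731. The medians of the 15 genes were 0.28 in KO cells and 0.21 in WT cells.

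Some receptors for other cytokines that signal through JAKs rose with IFNγ. Of 29 such genes 17 were tested, and 4 rose in KO cells and 6 in WT cells, where 4.67% of all tested genes were called higher in KO cells and 4.53% in WT cells. Il12rb1, a chain of the interleukin-12 and interleukin-23 receptors, rose by 5.06 in KO cells and by 4.10 in WT cells. Il7r, the interleukin-7 receptor chain, rose by 2.77 in KO cells and by 2.04 in WT cells. Il15ra had 1 read in medium in each genotype, and its normalised reads with IFNγ over medium came to a ratio of 85.3 in KO cells (95% counting interval 15.0 to 3404) and 112 in WT cells (19.6 to 4487). Il2rg, the chain shared by the interleukin-2 family of receptors, rose by 0.75 in KO cells and by 0.90 in WT cells. The difference between the KO and WT changes was called for none of the 17. The median was 0.29 in KO cells and 0.60 in WT cells.

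**Figure D4:**
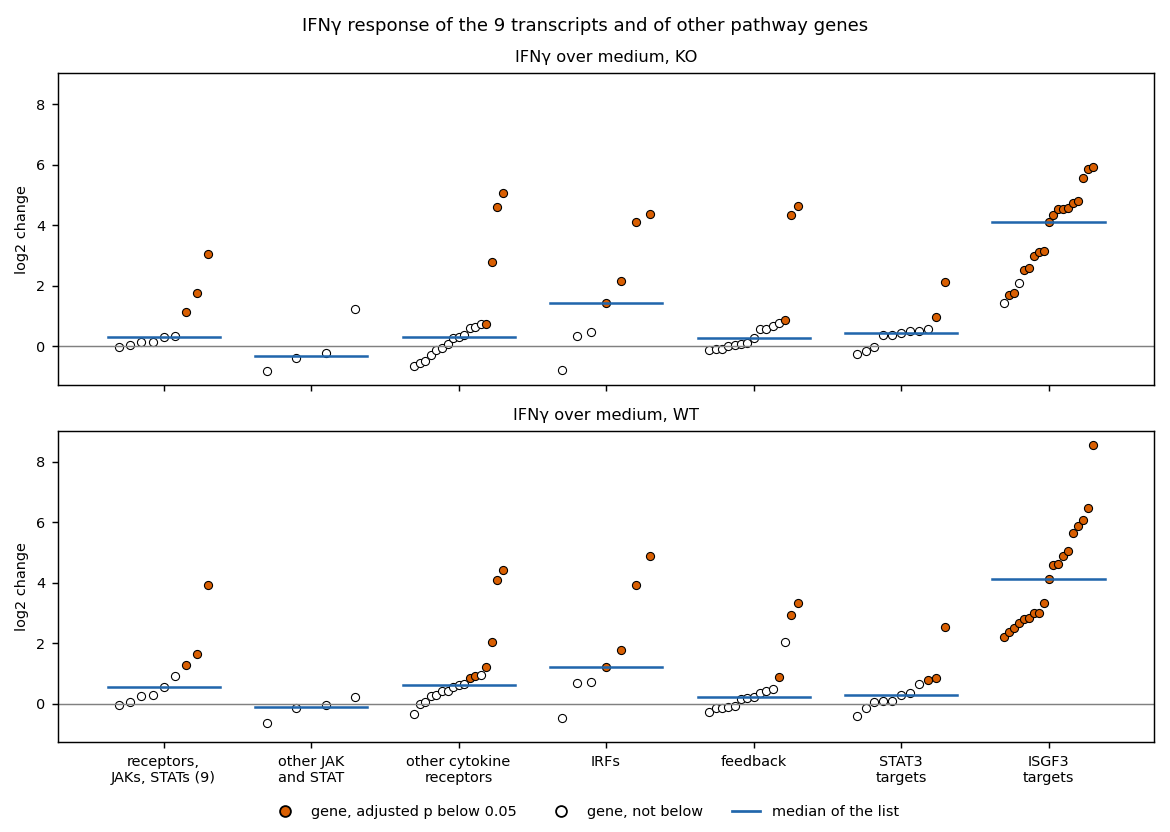
Log2 change with IFNγ over medium in KO (top) and WT cells (bottom) for the 9 transcripts and 6 lists of other pathway genes; each point is a gene, filled where the limma adjusted p is under 0.05, and the lines are list medians. The list of ISGF3 targets has medians of 4.12 and 4.11 in KO and WT cells, while the medians of the 9 transcripts are 0.31 and 0.55.

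Known targets of ISGF3 and of Stat3 were among the genes called higher with IFNγ, where 4.67% of all tested genes were called higher in KO cells and 4.53% in WT cells. Of 19 tested targets of ISGF3, the complex that holds Stat2, 17 rose in KO cells and 19 in WT cells, with medians of 4.12 and 4.11. In KO cells Ifi44 rose by 5.85, Ifit1 by 5.55, and the antiviral GTPase gene Mx1, with no read in KO cells in medium, was at least 58.2-fold higher with IFNγ against a floor of 3 reads over the group. In WT cells Isg15, a ubiquitin-like modifier, rose by 6.06, while Ifi44 and Mx1 had 1 read each in medium and ratios of 1669 (95% counting interval 299 to 65990) and 518 (92.3 to 20500). Between KO and WT cells with IFNγ the median of the 19 genes was -1.09, and 1 gene was called, Rsad2, at 11.31 ± 0.16 in KO cells and 13.17 ± 0.23 in WT cells (SD, n = 3 each) with a limma adjusted p of 0.00426. In medium the median of KO minus WT was -0.69, and 1 gene was called, Usp18, as given above. Of all tested genes 0.492% were called between KO and WT cells with IFNγ and 0.428% in medium. The median difference of the IFNγ changes, KO minus WT, was -0.53, with 0 of the 19 genes called by limma. Some of these families, such as Ifit and Oas, hold close copies that can share reads, and Usp18 and Irf7 are counted here and in the lists above. Of 11 tested targets of Stat3, 2 rose in KO cells and 3 in WT cells, with medians of 0.43 and 0.28. Bcl3 rose by 2.11 in KO cells and by 2.53 in WT cells, Pim1 by 0.95 and 0.85 in KO and WT cells, and the cyclin gene Ccnd1 by 0.78 in WT cells. Socs3, a widely used readout of Stat3, changed by 0.56 in KO cells (limma adjusted p = 0.327) and by -0.14 in WT cells (limma adjusted p = 0.845).

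For the 4 transcripts whose group means spanned more than 1, the tested genes with the most similar pattern were found by the root mean square difference over the 12 libraries after each gene was centred on its own mean. For Stat2 these were Ifit2 at 0.357, Tap2 at 0.506 and Ifi204 at 0.508, where the median of all tested genes was 1.87. For Stat3 they were Pcmtd1 at 0.219, Samhd1 at 0.22 and Atp8a1 at 0.228, where the median was 0.846. For Jak2 they were Bcl2 at 0.148, Ctsc at 0.178 and Arrdc4 at 0.214, where the median was 0.927. For Tyk2 they were Stk40 at 0.24, Tcirg1 at 0.244 and Gm38335 at 0.246, where the median was 0.611. The genes were chosen for this likeness, so their changes are not separate evidence.

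Several of the genes lie next to each other in the genome (GRCm38, positions from GENCODE M21). Ifnar2 (chr16:91372783-91405589), Ifnar1 (chr16:91485238-91507441) and Ifngr2 (chr16:91547072-91565623) form a run on the + strand with Il10rb, the second chain of the interleukin-10 receptor. Il10rb starts 0.575 kb after Ifnar2, and Ifnar1 and Ifngr2 are 39.6 kb apart. Il10rb changed by -0.29 in KO cells and by -0.01 in WT cells, so none of the 4 genes of the run was called with IFNγ. Of all tested genes 7.36% were called with IFNγ in KO cells and 6.65% in WT cells. Stat3 (chr11:100885098-100939540, - strand) adjoins Stat5a, and Stat5b lies 34.4 kb from Stat3 on the far side of Stat5a. In this run Stat3 rose and the other 2 genes gave no call. Jak2 (chr19:29251828-29313080, + strand), Jak1 (chr4:101152367-101265282, - strand), Tyk2 (chr9:21104068-21131243, - strand), Stat2 (chr10:128270559-128292849, + strand) and Ifngr1 (chr10:19591949-19610229, + strand) lie apart from the other 8 genes. Ifnar2 shares 13869 bases with Gm21970 on the same strand, so its reads may be split between the pair.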

How the data were processed

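Expression was measured in 12 BV2 libraries, 3 in each of 4 groups taken from the sample titles. Per the labels' protocols, RNA came from cells lysed so that nuclei stayed behind, was poly-A enriched and primed with barcoded oligo-dT, and libraries were pooled by their Actb level. The design text mentions pooling of replicates into 1 library; the 12 barcoded samples were treated as 12 libraries. The submitters' processing notes name STAR, HTSeq 0.6.1, DESeq2 1.10.1, FastQC 0.11.2 and GRCm38, with roles, annotation and strand not given in the sources used here. The authors deposited log2 values of a normalised count plus 1, and 100% of these turned back into whole reads within a tolerance of 0.01, which gave the depth. Read counts come from the 3′ end, so levels were not compared between genes, and intervals on read ratios (95%, exact) and the floor of 3 reads over a group cover counting error only. PCR copies are not independent molecules.

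Of 16924 genes with a read, 10981 reached 3 on the log2 scale in 3 or more libraries and were tested. The deposited values were fitted with limma (version 3.58.1, R 4.3.3), giving each group its mean over all 12 libraries and leaving 8 residual degrees of freedom, with trended empirical Bayes, two-sided p and Benjamini-Hochberg adjustment over all tested genes at 0.05. All adjusted p are limma's and errors of changes are its standard errors. The fit was tested on simulated data with 200 changed genes. Replicates differed by more than counting noise, and p-values measure the spread between these libraries. The 9 transcripts and all lists were chosen with earlier results of these data known, so no list was tested. The rule names all 9 transcripts, the other JAK and STAT genes and, per list and comparison, up to 3 called genes with the largest change. Il2rg, Il10rb, Socs3, Irf9 in medium, the marker genes and nuclear RNAs lie outside that rule and were named after their values were seen. Alternatives were the letter as a block, each library left out, 2 groups only, no trend, a pseudocount of 4, no filter, a filter at 5, median centring and limma-voom on the recovered reads.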

Additional observations from a re-analysis of the deposited data

How the results depend on the processing

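Over 936 alternative values of the 9 transcripts, 934 stayed on the same side of the threshold, 0 calls were reversed, and 38 uncalled values changed sign. The exceptions were Jak2 with IFNγ in WT cells, which without library B of WT cells with IFNγ was 1.00 (limma adjusted p = 0.0808), and Tyk2 with IFNγ in WT cells, which was called without the trend (0.92, limma adjusted p = 0.0393). With 1 library left out at a time, the IFNγ change in KO cells was 2.69 to 3.49 for Stat2, 1.00 to 1.29 for Stat3 and 1.57 to 1.90 for Jak2, and in WT cells 3.60 to 4.28, 1.48 to 1.87 and 1.00 to 1.55. The cause was not tested.

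Counts over all tested genes moved more. With 1 library left out, 513 to 959 genes were called with IFNγ in KO cells (808 with all libraries), 424 to 1084 with IFNγ in WT cells (730), 23 to 83 between KO and WT cells with IFNγ (54), 24 to 57 between KO and WT cells in medium (47) and 0 to 3 for the difference of the changes (0). The lowest counts with IFNγ came without KO library A with IFNγ (524) or in medium (513) and without WT library A (424) or B (428) with IFNγ or B in medium (448). Between KO and WT cells with IFNγ the count was 29 from these 2 groups only, 84 with limma-voom and 32 with no filter. In medium it was 23 from these 2 groups only and 30 with limma-voom. Without both C libraries with IFNγ, an alternative chosen after seeing the data, it was 1119 with IFNγ in WT cells, 18 between KO and WT cells with IFNγ and 3 for the difference.

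The labels do not say what a letter shares, and deviations of same-letter libraries correlated at -0.06 to 0.22, so the letters were not taken to pair the libraries. With the letter as a replicate block, 89 genes were called between KO and WT cells with IFNγ and 1 for the difference of the changes, and no call of the 9 transcripts changed. Every library correlated best with its own letter between KO and WT cells in medium, as a hint from the data, and not in the other comparisons. Low reads limit Tyk2, Jak2 and Stat2 in medium. Fitting 2 groups only could not be done for the difference of the changes.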
